A study of Akebia trifoliata with 9 samples.

Results

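A set of 170 genes of Akebia trifoliata leaves, out of 82321 in a transcriptome assembly, stood higher under simulated acid rain than in control leaves and had a similar group mean whether or not curcumin was given. They were chosen on the values described here. The highest Control value had to lie below the lowest of the 6 acid rain libraries, and the mean of the acid rain group without curcumin had to be at least 5 TPM. TPM is a length-corrected share, in which the values of all genes of a library add up to a fixed total. After adding 1 TPM to each group mean, the smaller of the acid rain means had to be at least 2 times the Control mean, and the acid rain means had to lie within 1.5-fold of each other. The levels below are therefore a description of that choice, and no test of the same comparisons supports them.

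Akebia trifoliata is a woody climber of the family Lardizabalaceae, grown for its fruit and as a medicinal plant. RNA from leaves was sequenced in 9 libraries, 3 for each of 3 groups. Distilled water was given to Control plants both at the roots and as the spray. Plants of the CUR0 group received simulated acid rain of pH 2.0 on the leaves and curcumin at 0 µmol/L. The CUR50 plants received curcumin at 50 µmol/L at the roots under the same spray. Watering was 500 mL per pot in all 3 groups. It was repeated every 2 days and the treatment lasted 28 days. The labels give 4 plants and 3 replicates per treatment, so it is unclear whether each library is a separate plant, and the SDs below measure the spread between libraries. They describe no group that received curcumin without acid rain and do not name the solvent of the curcumin, so an effect of curcumin outside acid rain cannot be read from these groups.

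Acid rain wets the leaf surface with protons and acid anions. It is known to erode the cuticle, leach cations and lower photosynthesis, and leaves respond with antioxidant enzymes, ion transport and defence hormones. Curcumin is the yellow polyphenol of turmeric, known as a scavenger of reactive oxygen. The choice of the 170 genes addresses which transcripts stood at a similar raised level under acid rain with and without curcumin.

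The genes are known only by assembly identifiers of the form written by Trinity, which builds transcripts from reads without a genome. None of the 82321 identifiers matched a name, tag or accession among the 32005 genes of the reference table for assembly ASM1797944v1. What the 170 genes encode, where they lie and which pathways they belong to is therefore not stated here, lists of stress, hormone or photosynthesis genes could not be applied, and the leaf label could not be set against leaf markers. No sequence is shown for the same reason. In whole leaves a higher transcript level can come from more RNA per cell or from more cells of a type, which cannot be told apart.

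The CUR50 libraries resembled each other less than those of the other groups. Correlations of log2(TPM + 1) across all genes ran from 0.902 to 0.920 between CUR50 libraries, against 0.936 to 0.941 between Control libraries and 0.942 to 0.945 between CUR0 libraries. CUR50 replicate 1 lay apart from replicates 2 and 3 in many genes, which matters for a set chosen on group means. The number of genes that met the conditions is therefore also given without this library. It was 206 without CUR50 replicate 1, and 123 of the 170 were among them.

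The conditions narrowed the assembly in steps. All 6 acid rain libraries exceeded the highest Control library in 2304 identifiers. Tested genes, as the term is used below, are the 31754 that reached 1 TPM in 3 or more libraries, and 5.73% of them met this first condition. Of the 2304, 1182 had a CUR0 mean of at least 5 TPM, and 320 of these also reached 2 times Control in both acid rain groups. Among the 320, the CUR50 mean was more than 1.5-fold above CUR0 in 118 and more than 1.5-fold below it in 32, and the remaining 170 are the genes described here. All 170 are among the tested genes. The values at the borders are close on either side. The smallest ratio to Control was 2.01 inside the set and the largest outside it 1.99, the ratio of CUR50 to CUR0 ran from 0.672 to 1.498 inside with the nearest outside at 0.659 and 1.503, and the lowest CUR0 mean was 5.003 TPM inside with the nearest outside at 4.95 TPM.

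A wider view starts from the genes that were higher in CUR0 than in Control, whatever CUR50 did. There were 628 such genes, with no overlap between the 3 CUR0 and the 3 Control libraries, a CUR0 mean of at least 5 TPM and a ratio of at least 2. In CUR50 the mean of 280 of them (44.6%) stayed within 1.5-fold of CUR0, that of 223 (35.5%) was lower by more than that, and that of 125 (19.9%) was higher. The CUR0 libraries enter both ratios, so genes that happened to be high in CUR0 are favoured among the 223, and the split is given as a count with no test. Of the 280, 110 are not in the set. In 66 of these a CUR50 library overlapped Control, in 20 the ratio of CUR50 to Control was below 2, and in 24 both held. The mirror image of the rule, genes lower in all 6 acid rain libraries with means within 1.5-fold, held 325 genes as deposited. After median-of-ratios scaling the counts were 206 raised and 292 lowered genes, and after quantile normalization 197 and 330.

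**Figure D1:**
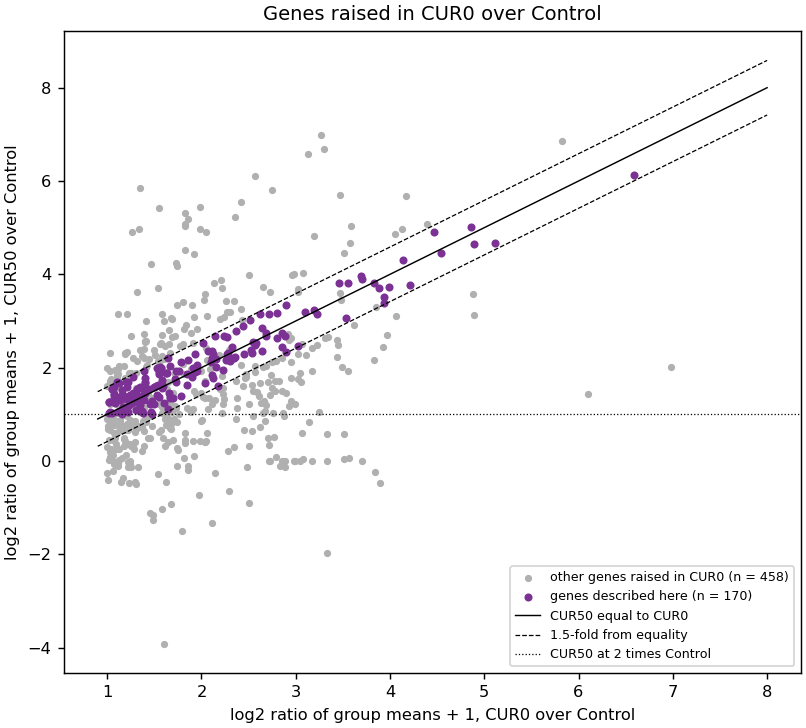
Log2 ratios of group means (each mean + 1 TPM) of CUR50 over Control against CUR0 over Control for the 628 genes raised in CUR0, with the 170 chosen genes in purple. The chosen genes lie between the dashed lines of 1.5-fold and above the dotted line by construction, and grey points below the lower dashed line are genes whose CUR50 mean was lower.

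Most of the 170 genes were of moderate level. The CUR0 mean was between 5 and 10 TPM in 68 genes, between 10 and 50 TPM in 77, between 50 and 100 TPM in 14 and above that in 11, with a median of 11.3 TPM. The median of the Control means was 2.53 TPM and that of the CUR50 means 12.6 TPM. In Control 46 genes had a mean below 1 TPM, 74 between 1 and 5 TPM, 22 between 5 and 10 TPM and 28 above. So the set joins genes that were near the lowest measurable level in control leaves with genes that were already well expressed there.

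The smaller of the ratios to Control, taken on means + 1 TPM, had a median of 3.07 and a range from 2.01 to 70.5. It was below 3 in 83 genes, between 3 and 5 in 45, between 5 and 10 in 25 and above 10 in 17. The 1 TPM added to each mean shrinks the ratio of genes with low Control values. All 3 Control libraries listed 9 of the genes at 0. These 9 enter the counts above with ratios up to 13.1, which rest on the added 1 TPM. Their CUR0 means ran from 5.23 to 14.3 TPM and their CUR50 means from 4.07 to 12.1 TPM. A further view of the low end is that 31 genes had a 0 in at least 1 Control library and 0 genes had one in any acid rain library, the latter because of the choice.

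The median gene of the set lay 1.67 above Control in CUR0 and 1.85 above it in CUR50 on the log2 scale of means + 1 TPM, where the median of all tested genes was -0.09 and 0.05. Library by library, the median log2 ratio to the Control mean was 1.82, 1.52 and 1.61 in CUR0 replicates 1, 2 and 3. It was 1.70, 1.58 and 1.85 in the CUR50 replicates, so the 3 values of each acid rain group overlapped those of the other. On TPM + 1, at least 2 times the Control mean was reached by 164, 145 and 155 of the 170 genes in the CUR0 replicates. In the CUR50 replicates it was reached by 137, 141 and 151. Every acid rain library was at least 2 times every Control library, again on TPM + 1, in 49 genes.

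**Figure D2:**
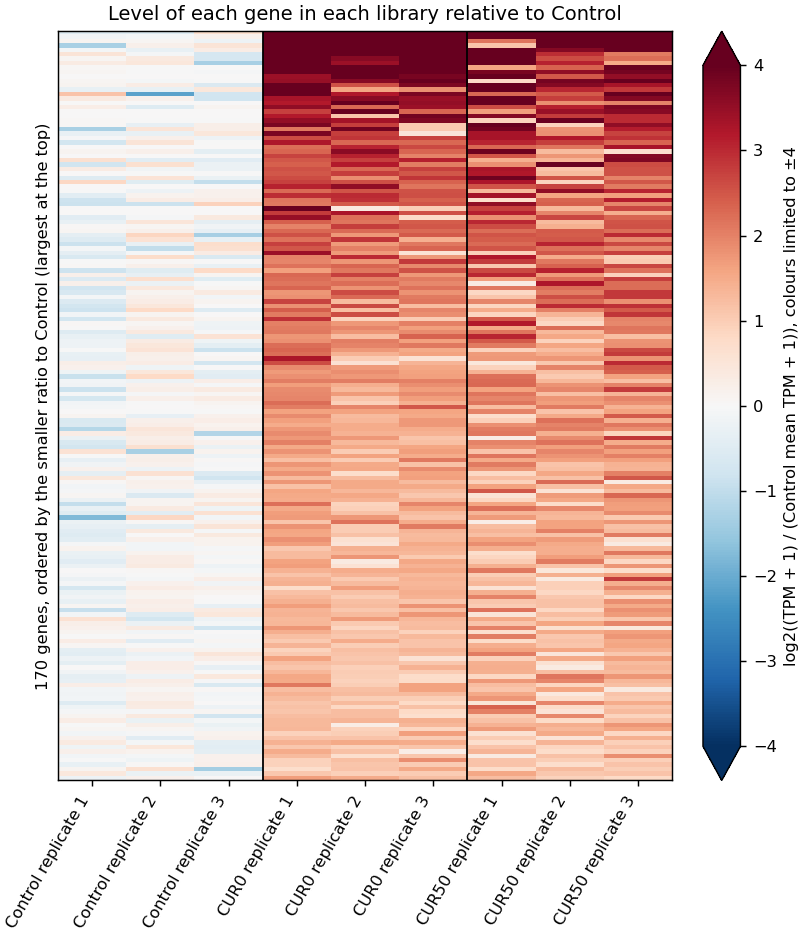
Each row is one of the 170 genes, ordered by the smaller of its ratios to Control, and each column a library. Colour gives log2((TPM + 1) / (Control mean TPM + 1)), limited to 4 in both directions. The Control columns are near white and the CUR0 columns mostly red, while more cells of the CUR50 columns are pale in rows where the neighbouring CUR50 libraries are dark.

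Summed over the 170 genes, the share of TPM was 0.274% ± 0.033 for Control, 1.21% ± 0.06 for CUR0 and 1.42% ± 0.07 for CUR50 (SD, n = 3). More than any other members, 2 genes carried this sum. They held 61.0% ± 1.6 of it in Control, 58.2% ± 3.3 in CUR0 and 65.2% ± 5.0 in CUR50. The other 168 genes made up 0.106% ± 0.010 in Control, 0.502% ± 0.032 in CUR0 and 0.492% ± 0.044 in CUR50. The higher sum in CUR50 than in CUR0 thus lay in the 2 most abundant genes, and the sums of the other 168 genes in the acid rain groups differed by less than the SD of either group.

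**Figure D3:**
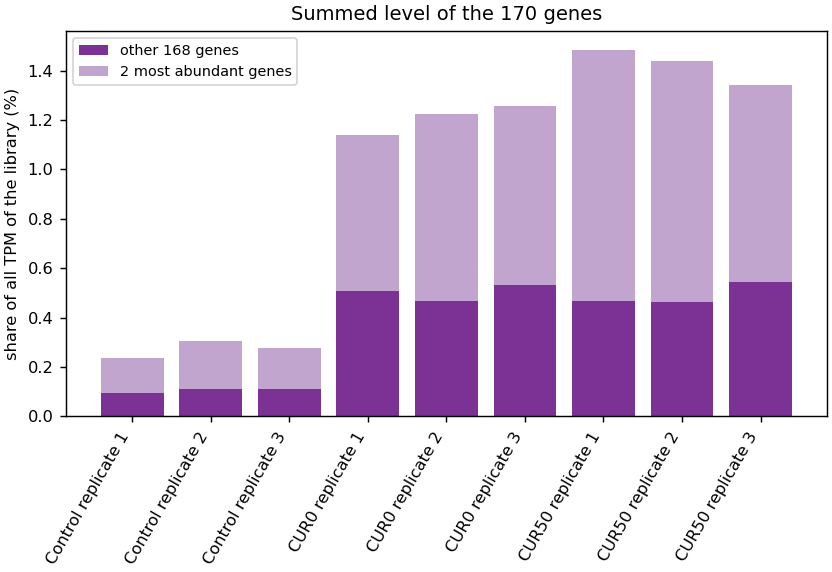
Bars give the share of all TPM of each library, in percent, taken by the 170 genes, divided into the 2 most abundant genes and the other 168. The dark part is near 0.5% in all 6 acid rain libraries and near 0.1% in Control, and the light part is tallest in CUR50.

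The most abundant of the 170 genes was TRINITY_DN6222_c1_g1. It stood at 726, 875 and 658 TPM in Control replicates 1, 2 and 3. In the CUR0 replicates it stood at 4601, 5446 and 4861 TPM, and in the CUR50 replicates at 7384, 7011 and 5570 TPM. Every acid rain library was far above every Control library. As deposited, every CUR50 library was also above every CUR0 library, but with median-of-ratios scaling CUR50 replicate 3, at 4952, fell below CUR0 replicates 2 and 3, at 6170 and 5149. The means were 753 ± 111, 4969 ± 433 and 6655 ± 958 TPM (SD, n = 3), so that CUR0 was 6.59 times Control and CUR50 1.34 times CUR0 on means + 1 TPM. This gene is the only identifier of its assembly cluster, the part of the identifier that groups similar sequences. So its level is not divided with a sequence of the same cluster. The gene does share its assembly component, the first number of the identifier, which holds 4 identifiers. Division of reads with the others was not tested. Its separation of CUR50 from CUR0 thus depended on the scaling, and its separation from Control did not under the scalings tried.

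The second most abundant gene had means in the same order. Its levels were 708, 1035 and 1015 TPM in Control, 1692, 2100 and 2379 TPM in CUR0 and 2779, 2745 and 2405 TPM in CUR50 (replicates 1, 2 and 3). As deposited, the lowest CUR50 value was just above the highest CUR0 value, and with median-of-ratios scaling the libraries mixed, with 2138 in CUR50 replicate 3 against 1656 to 2520 in CUR0. The ratio of CUR0 to Control was 2.24, close to the border of the set.

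The third most abundant gene showed a different picture. In Control it was steady at 25.5, 25.1 and 20.8 TPM. It reached 603, 755 and 1215 TPM in the CUR0 replicates, and 108.5, 1037 and 751 TPM in the CUR50 replicates. CUR50 replicates 2 and 3 lay within the CUR0 range and replicate 1 lay far below it, though still above all Control libraries. The group means, 858 ± 319 and 632 ± 476 TPM, met the limit of 1.5-fold, and their SDs show how unequal the libraries were.

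The fourth most abundant gene stood at 69.6, 73.4 and 152 TPM in Control, 315, 222 and 240 TPM in CUR0 and 253, 255 and 369 TPM in CUR50. Here the acid rain groups overlapped and Control replicate 3 was about 2 times the other Control libraries. The fifth stood at 71.4, 81.1 and 79.2 TPM in Control, 183, 177 and 235 TPM in CUR0 and 168, 230 and 101 TPM in CUR50, with CUR50 replicate 3 the lowest of the acid rain libraries.

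The gene with the largest ratio to Control was TRINITY_DN7407_c0_g2. Control replicates 1 and 2 listed it at 0, and Control replicate 3 had 1.27 TPM. In CUR0 it stood at 135, 153 and 120 TPM, and in CUR50 at 171, 67.9 and 59.5 TPM (replicates 1, 2 and 3). The CUR0 libraries were alike, and in CUR50 replicate 1 was above all CUR0 libraries while replicates 2 and 3 were below all of them. The means were 136 ± 17 TPM in CUR0 and 99.3 ± 61.9 TPM in CUR50 (SD, n = 3), and the smaller ratio to Control was 70.5 on means + 1 TPM.

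The assembly cluster of TRINITY_DN7407_c0_g2 holds 1 other identifier, which went the other way. That identifier stood at 22.8 ± 7.0 TPM in Control, 8.82 ± 3.21 TPM in CUR0 and 5.84 ± 6.31 TPM in CUR50 (SD, n = 3), and it was listed at 0 in CUR50 replicate 1. Both identifiers together gave 23.2 ± 7.2, 145 ± 16 and 105 ± 57 TPM. Control leaves thus held the cluster almost wholly as the other identifier and acid rain leaves mostly as the chosen one. How the assembler and the read assignment divided reads between them was not tested.

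Other genes with large ratios differed in how even they were in CUR50. The gene with the second largest ratio stood at 0.96, 1.04 and 1.46 TPM in Control, 44.5, 68.1 and 71.8 TPM in CUR0 and 82.5, 45.5 and 77.1 TPM in CUR50. Its acid rain groups overlapped over most of their ranges. In contrast, the gene with the sixth largest ratio stood at 1.53, 0.67 and 0.11 TPM in Control, 53.0, 27.2 and 40.4 TPM in CUR0 and 94.2, 12.7 and 6.43 TPM in CUR50. Its acid rain means differed by less than 1.1-fold, and yet none of its CUR50 libraries lay within the CUR0 range.

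**Figure D4:**
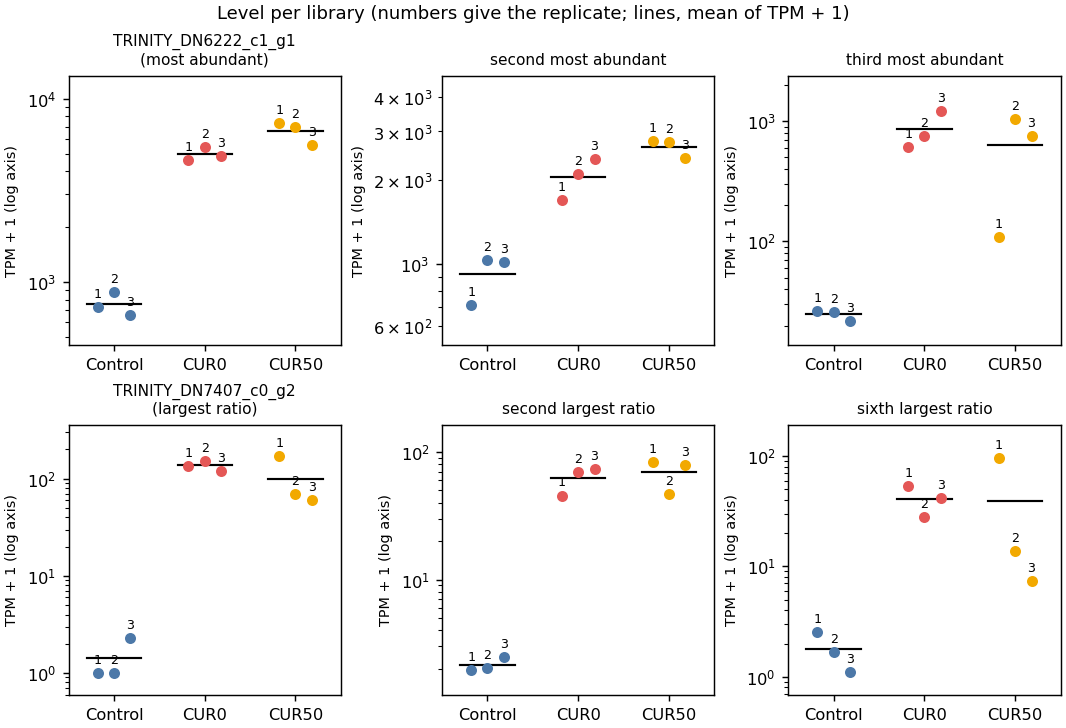
Level of 6 of the 170 genes in each library as TPM + 1 on a log axis, with replicate numbers beside the points and a line at the mean of TPM + 1. The most and second most abundant genes and the gene with the second largest ratio have CUR50 libraries close together, and in the other 3 panels CUR50 replicate 1 stands apart from replicates 2 and 3.

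Unequal CUR50 libraries were frequent in the set. The highest CUR50 library exceeded the lowest by more than 2 times (TPM + 1) in 93 genes (54.7%) and by more than 5 times in 19. The same held in CUR0 for 44 genes (25.9%) and 9 genes, and in Control for 48 genes (28.2%) and 2 genes. Of the 14193 tested genes with a CUR0 mean of at least 5 TPM, 16.4% passed 2 times in CUR50, 6.02% in CUR0 and 4.69% in Control. Those genes were more abundant, with a median of mean TPM of 17.9 against 9.15 for the 170 genes. Of all 31754 tested genes, with a median of 4.05, 32.0% passed 2 times in CUR50, 20.5% in CUR0 and 19.2% in Control. The shares were larger among the 170 genes in each group, by less in CUR0 and Control when set against all tested genes. This is a description only, since the set was chosen on the same values. The median SD of log2(TPM + 1) was 0.59 among the CUR50 libraries for the 170 genes, against 0.29 among the CUR0 and 0.31 among the Control libraries.

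Spread in CUR50 went with the size of the ratio to Control, in part by construction. More than 2 times between the CUR50 libraries was seen in 32 of 83 genes with a ratio below 3, in 25 of 45 with a ratio from 3 to 5, in 21 of 25 with a ratio from 5 to 10 and in 15 of 17 above 10. The rule asked every CUR50 library to exceed the highest Control library. This leaves less room for a low CUR50 library where the ratio is small, so the counts are a description only. A ratio of low values is also limited by the added 1 TPM, which holds down both quantities. In 66 genes the spread passed 2 times in CUR50 alone, in 27 in both acid rain groups, in 17 in CUR0 alone and in 60 in neither. The widest of all ran from 11.3 TPM in CUR50 replicate 1 through 135 TPM in replicate 2 to 282 TPM in replicate 3, with CUR0 at 112, 227 and 169 TPM and Control at 1.35, 5.62 and 7.24 TPM.

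**Figure D5:**
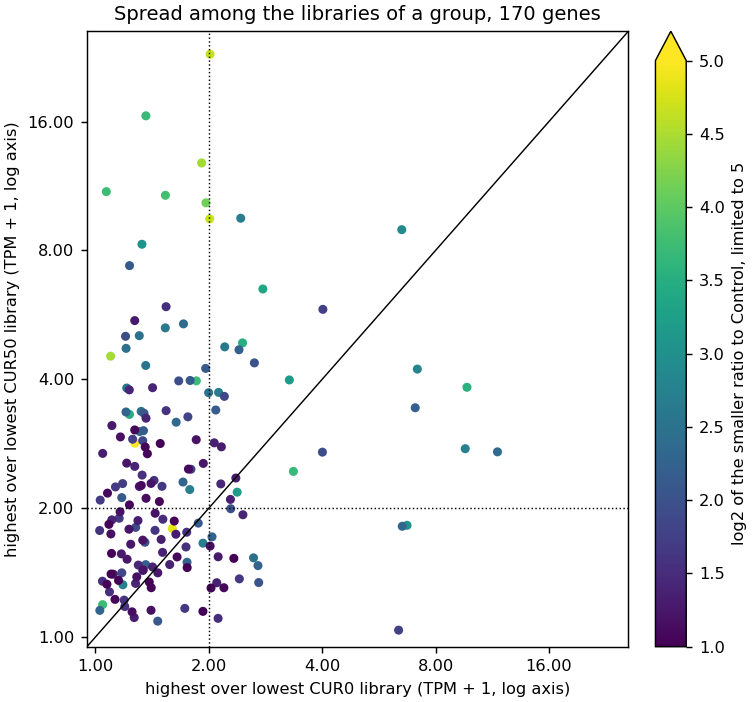
Ratio of the highest to the lowest library (TPM + 1) within CUR50 against the same within CUR0 for the 170 genes, both on log axes, with colour for the smaller ratio to Control. Above the diagonal lie 126 genes, and the dotted lines mark 2 times.

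CUR50 replicate 1 stood apart in more genes than the other CUR50 replicates, on either side. In 19 genes this library was at least 2 times both other CUR50 libraries, and in 17 it was lower than both by at least 2 times (TPM + 1). The corresponding counts were 3 and 11 for CUR50 replicate 2 and 14 and 3 for replicate 3. In the CUR0 replicates they were 8 and 0, 4 and 5, and 0 and 5. Among the 14193 tested genes of at least 5 TPM in CUR0, CUR50 replicate 1 was the high library in 1.42% and the low one in 4.28%. The shares were 1.44% and 2.20% for CUR50 replicate 2 and 1.33% and 0.82% for replicate 3. In the CUR0 replicates they were 1.13% and 0.28%, 0.25% and 0.81%, and 0.16% and 0.47%. Over these genes CUR50 replicate 1 thus differed from the other CUR50 replicates on the low side only.

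In the 19 genes high in CUR50 replicate 1, the median log2 ratio to the Control mean was 3.34 there, 1.72 in replicate 2 and 1.51 in replicate 3, beside 2.32, 2.72 and 2.36 in the CUR0 replicates. Replicate 1 was above every CUR0 library in 16 of the 19, and replicates 2 and 3 were both below every CUR0 library in 13. In the 17 genes low in CUR50 replicate 1, the median log2 ratio was 0.89 there and 2.59 and 2.85 in replicates 2 and 3, beside 2.16, 2.5 and 1.93 in the CUR0 replicates. Replicate 1 lay below every CUR0 library in 16 of the 17, and replicates 2 and 3 were both above every CUR0 library in 8. In replicate 1, 6 of the 17 reached 2 times the Control mean on TPM + 1. The added 1 TPM lowers this count. One gene outside the 6 stood at 0.84 TPM there against a Control mean of 0.05 TPM. For these 36 genes a group mean near that of CUR0 was an average of libraries above and below it. These lists were drawn up after the values were seen and carry no test.

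In the whole set the ranges of CUR50 and CUR0 overlapped in 159 genes. As deposited, they did not overlap in 11 genes, 8 with every CUR50 library above every CUR0 library and 3 with every one below, where 25.4% of all tested genes had no overlap in either direction. Of the 8, 1 was still apart with median-of-ratios scaling and 2 with quantile normalization, and all of the 3 were still apart with both. Of the 8, besides the most and second most abundant genes, one stood at 6.65, 7.82 and 5.71 TPM in Control, 20.9, 22.4 and 20.5 TPM in CUR0 and 33.1, 25.7 and 30.1 TPM in CUR50. With median-of-ratios scaling its CUR50 replicate 2, at 23.2, lay within the CUR0 range of 20.5 to 25.4. Of the 3, the most abundant stood at 77.3, 51.2 and 58.6 TPM in Control, 156, 163 and 168 TPM in CUR0 and 143, 108 and 143 TPM in CUR50. All 3 CUR50 values lay within the CUR0 range in 18 genes, 2 of the values in 33, 1 in 59 and 0 in 60. All 3 CUR50 libraries were within 1.5-fold of the CUR0 mean (TPM + 1) in 51 genes and within 2-fold in 111, and for the CUR0 libraries themselves the first count was 132.

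The means of the acid rain groups were close by choice and lay within 1.1-fold in 57 genes. CUR50 was the higher mean in 98 genes and CUR0 in 72. The median log2 ratio of CUR50 to CUR0 was 0.05, where that of all tested genes was 0.14. With median-of-ratios scaling the median of all tested genes was 0.02 and CUR50 was the higher mean in 70 of the 170 genes, and with quantile normalization the median of all was 0 and the count 58. Which group was higher thus turned with the scaling.

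When 2 of the conditions were asked of single libraries in place of the means, 15 of the 170 genes remained. In these every acid rain library was at least 2 times the highest Control library (TPM + 1). Each CUR50 library was within 1.5-fold of the CUR0 mean (TPM + 1). The limit of 1.5-fold was not asked of the CUR0 libraries, and one of the 15 stood at 8, 1.15 and 13.45 TPM in CUR0. This stricter choice was made after the values were seen. TRINITY_DN6222_c1_g1 is the most abundant of the 15, and the gene with the second largest ratio is among them. Their CUR0 means ran from 5.97 to 4969 TPM with a median of 12.1 TPM, and their smaller ratios to Control from 2.64 to 29.0.

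Several of the 15 had nearly equal CUR0 libraries. One stood at 0.24, 0.15 and 0.13 TPM in Control, 18.0, 17.7 and 17.2 TPM in CUR0 and 15.5, 12.9 and 15.5 TPM in CUR50. Another stood at 7.32, 7.11 and 7.21 TPM in Control, 24.0, 24.0 and 23.4 TPM in CUR0 and 31.3, 17.2 and 24.0 TPM in CUR50. A low one stood at 0.57, 0.70 and 0.17 TPM in Control, 6.34, 6.14 and 6.15 TPM in CUR0 and 5.97, 7.05 and 6.02 TPM in CUR50. In the first of these the CUR50 libraries lay just below all CUR0 libraries, and in the other two the ranges overlapped.

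The calls of the test over the whole table are given as a description, since the choice of the genes used each of the comparisons. In limma with an adjusted p under 0.05 (Benjamini-Hochberg over the 31754 tested genes), 125 of the 170 genes were called higher in CUR0 than in Control, where 2.96% of all tested genes were. In CUR50 against Control 140 were called higher, where 6.17% of all tested genes were. Both calls were made for 121 genes and neither for 26. Leaving out Control replicate 1, 2 or 3 gave a first count of 56, 62 or 54, where 1.07%, 1.03% and 0.991% of all tested genes were called higher. The second count was then 76, 80 or 62, where 2.04%, 1.87% and 1.54% were. Leaving out CUR0 replicate 1, 2 or 3 gave a first count of 79, 72 or 59, where 1.37%, 1.21% and 0.885% were. The second count was 137, 130 or 106 without CUR50 replicate 1, 2 or 3, where 8.66%, 7.83% and 3.34% were.

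Between CUR50 and CUR0, 0 of the 170 genes were called in either direction by limma with an adjusted p under 0.05, where 4.77% of all tested genes were. At an unadjusted p under 0.05 there were 6, with 4 higher and 2 lower in CUR50, where 24% of all tested genes passed. The choice removed genes with different means, so the 0 says nothing about curcumin. Without CUR50 replicate 1 the count was 10, of which 9 were lower and 1 higher in CUR50, where 11.3% of all tested genes were called. It was 1 without CUR50 replicate 2 and 1 without replicate 3, where 7.50% and 1.30% were. With only the 6 libraries of this comparison it was 0, where 0.501% of all tested genes were called.

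The 95% intervals of the difference show what this fit could resolve. They rest on 1 spread per gene shared by all 3 groups. The median SD of log2(TPM + 1) of the 170 genes was 0.59 in CUR50, 0.29 in CUR0 and 0.31 in Control. The intervals can therefore be too narrow for genes uneven in CUR50. On the log2(TPM + 1) scale the median half-width of the interval of CUR50 minus CUR0 was 0.85 for the 170 genes, 0.58 for all tested genes and 0.35 for the tested genes with a CUR0 mean of at least 5 TPM. The choice kept only genes with similar acid rain means, so the stated 95% does not hold for these intervals. Counts of them are a description only. The interval lay within 1 on this scale, a 2-fold difference, in 76 genes, and within 1.5-fold in 13. For the other genes a difference of 2-fold in at least one direction was within the interval, so similar means do not show that curcumin left these genes unchanged. For TRINITY_DN6222_c1_g1 the interval ran from 0.05 to 0.78 on the values as deposited, and its separation of CUR50 from CUR0 depended on the scaling. For TRINITY_DN7407_c0_g2 it ran from -1.60 to 0.38.

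The rule took no account of assembly clusters. Of the 170 genes 98 (57.6%) were the only identifier of their cluster, against 47.5% of the tested genes. The other 72 shared 70 clusters with other identifiers, and under acid rain the chosen gene held a median of 70.8% of the TPM of its cluster. Of the identifiers that shared a cluster with a chosen gene without being chosen, 75 were tested genes. They are the ones that did not meet the rule, so few with large ratios are left among them by construction. In 27 of these (36.0%) both acid rain means were above Control, against 31.3% of all tested genes, and in 28 (37.3%) both were below, against 36.3%. At least 2 times Control in both acid rain groups was reached by 6 of the 75, against 3.50% of all tested genes. Their median log2 ratio to Control was -0.07 in CUR0 and 0.07 in CUR50. Similar sequences of a cluster can divide reads among them, so the values of a chosen gene and its neighbours may not be independent. Such division was not tested.

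Only 4 assembly components, the first number of an identifier, held more than 1 of the 170 genes, with 2 each. In one of them both genes were high in CUR50 replicate 1, one at 326, 88.7 and 29.4 TPM in the CUR50 replicates and the other at 76.3, 8.70 and 6.48 TPM. Their levels in CUR0 were 166, 112 and 173 TPM and 37.7, 18.7 and 24.5 TPM, and in Control 12.3, 13.4 and 3.20 TPM and 0.68, 1.08 and 0 TPM. In a second component both genes also had their highest CUR50 value in replicate 1, at 44.7 and 17.5 TPM, with replicates 2 and 3 at 16.8 and 11.3 TPM and at 5.42 and 4.06 TPM. In the next component both genes had it in replicate 3, at 81.8 and 60.5 TPM, and the lowest CUR50 value was in replicate 1 for the first, at 43.1 TPM, and in replicate 2 for the second, at 42.8 TPM. In the last component the highest CUR50 value was in replicate 1 for one gene, at 242 TPM, and in replicate 3 for the other, at 46.1 TPM.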

How the data were processed

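The authors deposited TPM values per assembled gene for 9 libraries; per the submitters' processing notes, fastp, Bowtie2, RSEM and DESeq2 were used, without versions. Columns sum to between 999997 and 1000003. TPM keep no read number, so depth is unknown, no counting error is attached, and no count test was run. TPM are shares, so a rise of abundant genes lowers all others. The sources used here do not give the assembly settings or an annotation. Columns were assigned to libraries by title; 2 Control columns lack a letter of it.

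The 170 genes, the rule behind them and all lists were chosen with earlier results of these data known. Identifiers printed are the gene with the largest ratio and the most abundant one; other genes are described by rank. The test was limma with an intensity trend on log2(TPM + 1), all 9 libraries in 1 fit (6 residual degrees of freedom), on genes reaching 1 TPM in 3 or more libraries, with Benjamini-Hochberg adjustment over all of them and a threshold of 0.05. It was tested on simulated data. Alternatives were quantile normalization, median-of-ratios scaling, other filters, offsets and thresholds, a replicate block, array weights and leaving out each library. Software was R 4.3.3, limma 3.58.1, version 1.17.8 of its data.table package, Python 3.11.15 and matplotlib 3.10.9.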

Additional observations from a re-analysis of the deposited data

How the results depend on the processing

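The number of genes meeting the rule was 170. It was 87 with a ratio of at least 3, and 297 and 102 with a CUR0 mean of at least 1 or 10 TPM. In settings chosen after seeing the data, it was 15 with the conditions on single libraries described above. It was 263 without the separation from Control, also chosen after seeing the data. It stayed within 1.5 times of 170 with an offset of 0.1 (175), with a narrower (114) or wider (248) limit between the acid rain means, with median-of-ratios scaling (206, of which 155 shared) and quantile normalization (197, 149 shared), with TPM summed per cluster (150) and with group medians (158, 125 shared) or log means (159, 142 shared), the medians and log means added after seeing the data. Leaving out 1 library gave from 156 to 215. The calls without 1 library were 54 to 145 (CUR0 against Control), 62 to 137 (CUR50 against Control) and 0 to 10 (CUR50 against CUR0). With the replicate block the counts were 110, 119 and 0, where 2.06%, 3.84% and 0.727% of all tested genes were called. Same-numbered libraries did not deviate together (correlations from -0.04 to 0.09), so the numbers are not taken as pairs. All other settings of the test kept the 3 counts within 1.5 times, or at 0 for CUR50 against CUR0, while the counts over all tested genes ran from 677 to 1871, from 1193 to 2180 and from 134 to 2317. Without 1 library these ran from 268 to 1471, from 459 to 2641 and from 22 to 3457. The median log2 ratio to Control was 2.02 for CUR0 and 2.15 for CUR50 with an offset of 0.1, and ran from 1.56 to 1.83 and from 1.74 to 1.99 without 1 library. That of CUR50 over CUR0 was -0.13 with quantile normalization, -0.07 with median-of-ratios scaling and from -0.03 to 0.17 without 1 library. The shares of TPM were 0.502% in CUR0 and 0.492% in CUR50 without the 2 most abundant genes. Genes with every CUR50 library above every CUR0 library numbered 8, and 1 and 2 with median-of-ratios scaling and quantile normalization. Those with every one below numbered 3, and 6 and 8 (chosen after seeing the data). Of all tested genes 25.4%, 24.4% and 23.6% had no overlap in either direction. Stricter limits leave fewer genes by construction, and the cause of the other shifts was not tested.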
